A study of Saccharomyces cerevisiae with 9 samples.

Results

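The RNA 3′ ends held by RNA polymerase I (Pol I) in yeast lacking Rpa49 were compared with those in yeast lacking Rpa34. The comparison takes all 3 rpa49Δ libraries and all 3 rpa34Δ libraries of a series of 9 libraries, chosen by genotype, and every position of the 35S rRNA gene. The 3 wild-type (WT) libraries entered no test and are given only beside the others. All 9 were Saccharomyces cerevisiae cultures with no treatment, and in the labels the rpa49Δ and rpa34Δ strains differ from WT and from each other only by the deletion. The assay was native elongating transcript sequencing (NET-seq), which pulls Pol I down together with its bound RNA and maps the last nucleotide of each RNA. Whether the 3 libraries of a strain were grown separately is not stated in the labels, so the p-values speak only to the spread among these libraries, which may be technical.

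Rpa49 and Rpa34 are Pol I subunits that bind each other and together resemble the Pol II factor TFIIF. Rpa49 also has a winged helix domain that Rpa34 lacks, and this domain is known for roles in initiation and elongation. Pol I makes 1 long precursor whose spacers are cut away and degraded, while 18S, 5.8S and 25S become ribosomal RNA. An RNA 3′ end in a spacer therefore lies in a short-lived RNA, but it can also be an end left by cutting of the precursor. Ends in mature rRNA can also be those of finished or processed rRNA carried along with the polymerase. Which ends belonged to growing RNA was not tested.

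The gene is the RDN37-2 copy, chrXII:460712-467569 on the minus strand in build R64, and position 1 is the first nucleotide of ETS 1. The external spacer ETS 1 ends at 700, 18S ends at 2500, the internal spacer ITS 1 ends at 2861, and 5.8S ends at 3019. ITS 2 then runs up to 3251, 25S up to 6647, and the external spacer ETS 2 up to 6858. Because a larger spacer share in one strain lowers every mature rRNA value, each library was scaled on its own spacer reads for the spacers and on its own mature rRNA reads for 18S, 5.8S and 25S. Values are reads per 1000000 reads of that class, called spacer RPM and mature RPM. They show how ends were distributed and not how much RNA there was.

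Sequences of 5 spacer positions that were higher in rpa49Δ and 5 positions that were lower are shown first because the comparison turns on them. Each is RNA as read from the deposited base column, 25 nt long and 5′ to 3′, with the RNA 3′ end in capitals. The first 5 were higher in rpa49Δ and the last 5 lower.
ETS 1 position 106, chrXII:467459-467483: cucgucaaacgguggagagAgucgc
ETS 1 position 138, chrXII:467427-467451: ucgucagaucugccuagucUcuaua
ETS 1 position 577, chrXII:466988-467012: ccugaaaaagcaauuuuucUggaau
ITS 1 position 2666, chrXII:464899-464923: cuauuccaaacggugagagAuuucu
ITS 2 position 3079, chrXII:464486-464510: ggaguuaacuugaaauugcUggccu
ETS 1 position 163, chrXII:467402-467426: cagcguguuuaauugacauGgguug
ETS 1 position 175, chrXII:467390-467414: uugacauggguugaugcguAuugag
ETS 1 position 232, chrXII:467333-467357: guuucuuuugcguuuaaccUgaaca
ETS 2 position 6666, chrXII:460899-460923: uuuuuuauuucuuucuaagUgggua
18S position 702, chrXII:466863-466887: uucuucuuuuaagauaguuAucugg

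Depth differed between the strains and limits the low values of rpa49Δ. The rpa49Δ libraries held 1547074, 1568118 and 1242139 reads over the gene, against 2654736, 3575357 and 3367435 in rpa34Δ. Spacer reads numbered 43218, 41345 and 29213 in rpa49Δ and 146569, 227922 and 185453 in rpa34Δ. One read was thus worth 23.1 to 34.2 spacer RPM in rpa49Δ and 4.39 to 6.82 in rpa34Δ. Every library was listed at 0 at 12 positions, 3 of them near the start of ETS 1 and 9 around the 3′ ends of the mature rRNAs.

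The rpa49Δ libraries had fewer of their RNA 3′ ends in the spacers. The spacer share of reads was 2.79%, 2.64% and 2.35% in rpa49Δ, against 5.52%, 6.37% and 5.51% in rpa34Δ. The mean was 2.59% ± 0.224 in rpa49Δ, 5.801% ± 0.497 in rpa34Δ and 9.55% ± 1.00 in WT (SD, n = 3 each). The rpa49Δ and rpa34Δ libraries did not overlap (two-sided exact permutation p = 0.1, the smallest value that 3 against 3 libraries allow).

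Within the spacer reads, ITS 2 held more and ITS 1 and ETS 2 less in rpa49Δ. ITS 2 held 22.4% ± 1.24 of spacer reads in rpa49Δ, 17.1% ± 0.470 in rpa34Δ and 12.9% ± 0.964 in WT. ETS 2 held 5.83% ± 0.763, 8.71% ± 0.350 and 7.41% ± 1.14 in the same order of strains. ITS 1 held 14.97% ± 0.279 in rpa49Δ and 16.3% ± 0.713 in rpa34Δ. In these 3 spacers the libraries of the deletions did not overlap (exact permutation p = 0.1, or 0.133 after adjustment over 4 spacers). ETS 1 held 56.8% ± 2.3 in rpa49Δ and 57.8% ± 0.888 in rpa34Δ, and its libraries overlapped (exact permutation p = 0.6). These shares changed with the positions counted. Without positions within 10 nt of mature ends, the share in rpa49Δ minus that in rpa34Δ was -1.94 percentage points for ITS 2 and 4.97 for ETS 1 (exact permutation p = 0.1 for both), and 0.133 for ITS 1 (exact permutation p = 0.9). Without the highest 1% of positions it was 0.438 for ITS 1 (exact permutation p = 0.6) and 0.0416 for ETS 1 (exact permutation p = 1). Within mature rRNA reads the shares of 18S (34.2% against 34.1%), 5.8S (3.49% against 3.45%) and 25S (62.3% against 62.5%) overlapped between rpa49Δ and rpa34Δ.

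The spacer ends of rpa49Δ were concentrated at far fewer positions. In rpa49Δ, 50% of spacer reads lay at 26, 28 and 28 positions, against 104, 103 and 110 positions in rpa34Δ and 122 to 130 in WT. When all 6 libraries were thinned to the same number of spacer reads these numbers were 27, 28 and 28 in rpa49Δ and 104, 100 and 106 in rpa34Δ. The highest 1% of spacer positions held 41.5% ± 0.969 of spacer reads in rpa49Δ, 20.8% ± 0.673 in rpa34Δ and 16.3% ± 0.555 in WT (exact permutation p = 0.1, or 0.134 after adjustment over 39 measures of the profile). The Gini coefficient, which is 0 for an even spread over positions and 1 for a single position, was 0.775 ± 0.00158 in rpa49Δ, 0.685 ± 0.00771 in rpa34Δ and 0.664 ± 0.00840 in WT. In mature rRNA it was 0.428 ± 0.00479 in rpa49Δ and 0.407 ± 0.0105 in rpa34Δ, and 50% of mature reads lay at 1183, 1161 and 1152 positions in rpa49Δ and 1207, 1202 and 1269 in rpa34Δ. The curves of cumulative reads over ranked positions show both classes.

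**Figure D1:**
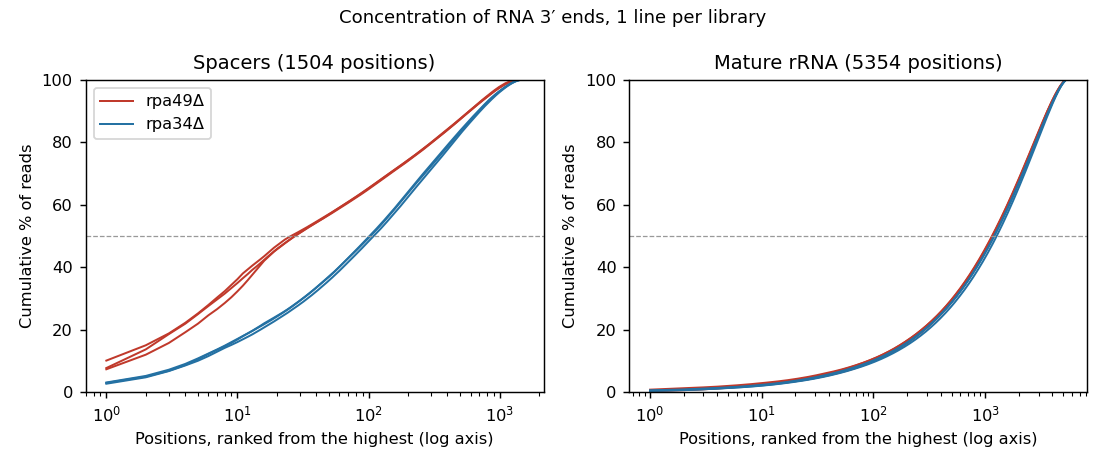
Cumulative percentage of reads (y axis) over positions ranked from the highest (x axis, log scale), 1 line per library, for spacers and for mature rRNA; the dashed line marks 50%. The rpa49Δ lines cross it at 26 to 28 spacer positions and the rpa34Δ lines at 103 to 110, whereas the mature rRNA lines lie close together.

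Bins of 50 nt showed where the redistribution lay. Of 32 spacer bins, 4 (12.5%) were higher and 19 (59.4%) lower in rpa49Δ, or 23 (71.9%) in either direction, at a threshold of 0.05 on the adjusted p (limma, Benjamini-Hochberg adjustment over all bins). At single positions, 157 of 1196 tested spacer positions (13.1%) were higher and 379 (31.7%) lower, or 536 (44.8%) in either direction. A share lowers when other positions take more reads, so the split depends on the scale. With the highest 1% of positions left out of the scale, 12 spacer bins were higher and 11 lower, and 260 positions were higher and 270 lower. On the scale of the whole gene 0 bins were higher and 29 lower, and 26 positions were higher and 867 lower, with the median log2 difference of all spacer positions at -1.07 in place of -0.23 on the class scale. The scales compared were the class, the whole gene, each region on its own reads and the class without the highest 1% of positions. On all 4 of them 0 spacer bins were higher and 11 lower, and 26 spacer positions were higher and 265 lower. 

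**Figure D2:**
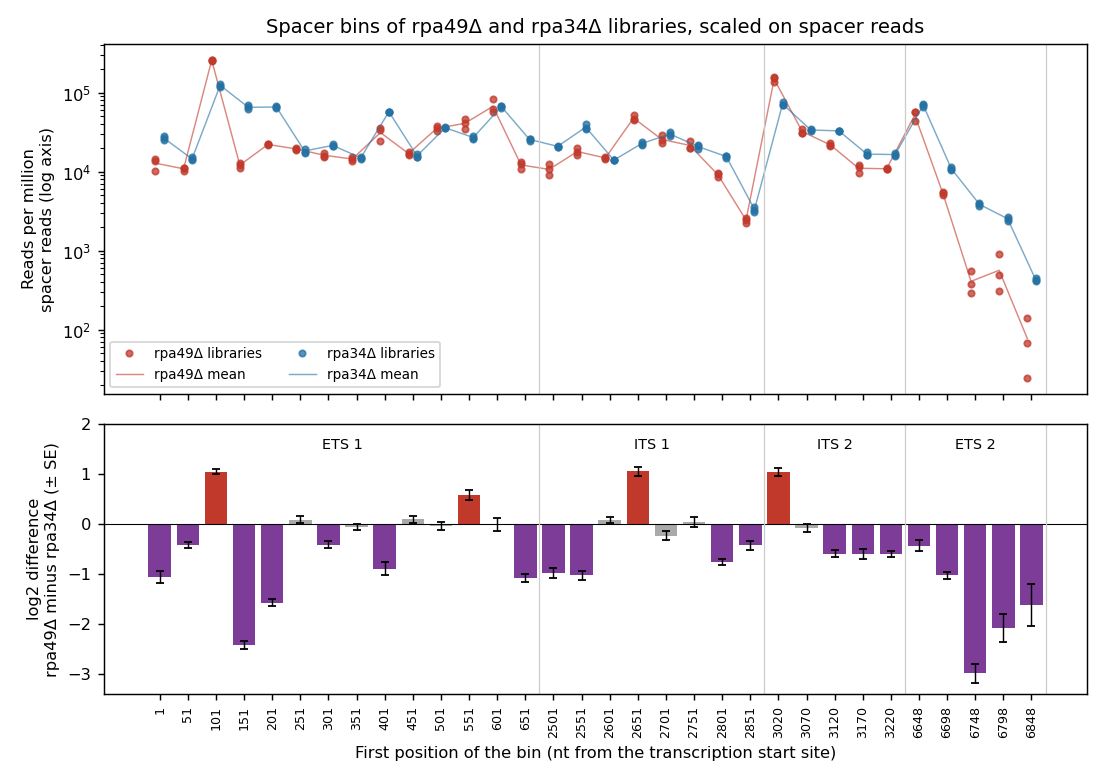
Upper panel, spacer RPM (y axis, log scale) of each 50 nt spacer bin in the 3 rpa49Δ and the 3 rpa34Δ libraries, with lines through the means; lower panel, log2 difference of rpa49Δ minus rpa34Δ ± SE, with red bars higher, purple bars lower and grey bars not past the threshold. The bins starting at 101, 551, 2651 and 3020 stand above 0, and the bins starting at 151, 6748 and 6798 reach the lowest differences.

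In ETS 1, the share of ends between positions 101 and 150 was higher in rpa49Δ and that of the next 100 nt lower, with 3 risen positions among the lower ones. The bin from 101 to 150 held 254038, 257976 and 259576 spacer RPM in rpa49Δ, against 122584, 129474 and 119044 in rpa34Δ. All rpa49Δ libraries lay above all rpa34Δ libraries (log2 difference 1.06, SE 0.050, limma adjusted p = 2.86e-07), and the WT mean was 94581 spacer RPM. The bin from 151 to 200 held 13004, 12166 and 11091 spacer RPM in rpa49Δ, against 65130, 68866 and 61622 in rpa34Δ. The log2 difference was -2.42 (SE 0.083, limma adjusted p = 4.50e-08), and the WT mean, at 60100, was close to that of rpa34Δ. The bin from 201 to 250 fell by 1.57, with 22046 ± 530 spacer RPM in rpa49Δ and 65661 ± 1935 in rpa34Δ. Both falls held on all 4 scales, whereas the rise at 101 to 150 did not. On the whole-gene scale the bin from 101 to 150 had a log2 difference of -0.10 (limma adjusted p = 0.595). The bin from 551 to 600, the other ETS 1 bin that rose, had a log2 difference of 0.59 on the class scale (limma adjusted p = 0.00162) and turned to -0.57 on the whole-gene scale (limma adjusted p = 0.000976).

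A few single nucleotides made up the excess between 101 and 150. Position 106 stood at 100907, 77059 and 46760 spacer RPM in rpa49Δ, against 18476, 17677 and 20027 in rpa34Δ. It was the highest spacer position of rpa49Δ, with a mean of 74909 ± 27138 spacer RPM against 18727 ± 1195 in rpa34Δ (log2 difference 1.93, SE 0.246, limma adjusted p = 7.10e-05), and the WT mean was 4551 ± 448. The groups did not overlap, though the rpa49Δ libraries differed among themselves by more than the rpa34Δ libraries did. Position 138 stood at 49054, 59717 and 73084 spacer RPM in rpa49Δ, against 10971, 11342 and 8805 in rpa34Δ (log2 difference 2.53, SE 0.192, limma adjusted p = 7.32e-07). In WT this position had 233 ± 30.7 spacer RPM, so that both deletions stood above WT and rpa49Δ further than rpa34Δ. The neighbouring positions 136, 137, 139 and 140 were also higher on all 4 scales, with log2 differences of at least 1.88. Positions 136 to 140 together held 10.6% ± 2.29 of spacer reads in rpa49Δ, 2.06% ± 0.269 in rpa34Δ and 0.187% ± 0.0250 in WT.

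Several of the tallest ends of rpa34Δ downstream of 140 were low in rpa49Δ. Position 232, the highest spacer position of rpa34Δ, stood at 463, 169 and 308 spacer RPM in rpa49Δ, against 29420, 30774 and 26821 in rpa34Δ. It showed the largest fall of any tested spacer position, a log2 difference of -6.20 (SE 0.221, limma adjusted p = 1.36e-09), and the WT mean was 12912 ± 1556. The rpa49Δ mean thus lay far below that of WT and the rpa34Δ mean above it. Position 163 stood at 370, 97 and 240 spacer RPM in rpa49Δ, against 18797, 19928 and 15093 in rpa34Δ, and fell by 5.83 (SE 0.255, limma adjusted p = 4.61e-09). Position 175 fell by 4.86, with 318 ± 128 spacer RPM in rpa49Δ, 11708 ± 663 in rpa34Δ and 5928 ± 547 in WT. These rpa49Δ values rest on few reads, 7 to 20 per library at 232, 4 to 16 at 163 and 8 to 20 at 175. Positions 162, 164, 196, 233 and 247 were also among the 10 largest falls, by 3.99 to 4.72. The window from 141 to 250, chosen after its values were seen, held 5.35% ± 0.182 of spacer reads in rpa49Δ, 15.2% ± 0.627 in rpa34Δ and 11.9% ± 0.901 in WT.

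The sequence from 151 to 250 shows how the falls were spread. The 32 capitals mark positions lower in rpa49Δ on all 4 scales, chrXII:467320-467419 on the minus strand, 5′ to 3′.
ETS 1 positions 151 to 250: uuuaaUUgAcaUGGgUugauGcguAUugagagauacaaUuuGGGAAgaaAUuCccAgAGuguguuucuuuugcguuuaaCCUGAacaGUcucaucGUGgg
They are 35.2% of the 91 tested positions of the stretch, beside 26.1% of tested ETS 1 positions and 22.2% of all tested spacer positions. The stretch was chosen for the falls of its bins, so its larger share describes that choice and tests nothing. No capital falls between 210 and 229, a gap of 20 nt. Inside it, positions 219, 222 and 224 were higher on all 4 scales, with log2 differences of 1.59, 2.05 and 1.59. The group from 219 to 224 held 0.430% ± 0.0140 of spacer reads in rpa49Δ, 0.101% ± 0.0177 in rpa34Δ and 0.112% ± 0.00643 in WT.

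**Figure D3:**
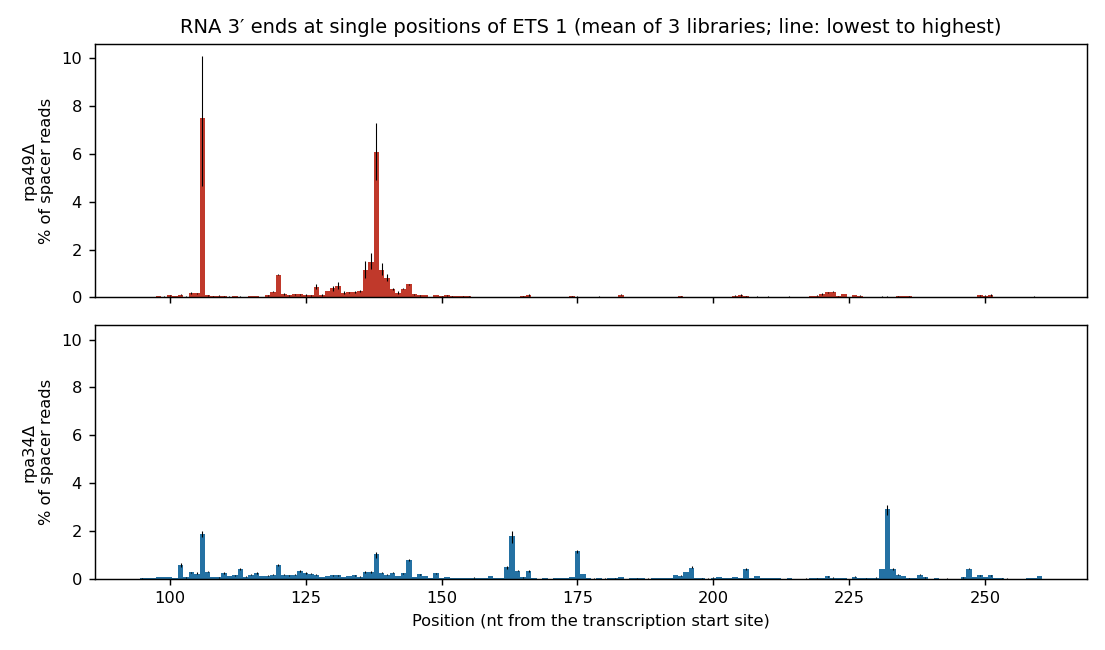
Percentage of spacer reads (y axis) at each position around 95 to 260 of ETS 1 (x axis, nt from the transcription start site), mean of 3 libraries with a line from the lowest to the highest, for rpa49Δ (upper) and rpa34Δ (lower) on the same scale. In rpa49Δ the highest bars stand at 106 and 138, and in rpa34Δ the highest stands at 232.

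Further along ETS 1, single positions rose again while the last bin fell. Position 577 stood at 24018, 25904 and 17218 spacer RPM in rpa49Δ, against 2845, 3304 and 3257 in rpa34Δ, a fold of 7.14 (log2 difference 2.78, SE 0.176, limma adjusted p = 1.32e-07), and the WT mean was 2022 ± 391.6. Position 525 had 5687 ± 692 spacer RPM in rpa49Δ and 1146 ± 51.6 in rpa34Δ (log2 difference 2.21). Position 626, among the 3 highest of rpa49Δ, had 37759 ± 9906 spacer RPM against 13659 ± 530 in rpa34Δ (log2 difference 1.43, limma adjusted p = 0.000119), but 0.27 on the whole-gene scale (limma adjusted p = 0.387). Only 3 nt away, position 623 fell by 3.80, with 353 ± 134 spacer RPM in rpa49Δ and 6030 ± 195 in rpa34Δ. Position 437, among the 3 highest of rpa34Δ, had 14740 ± 5055 spacer RPM in rpa49Δ and 19076 ± 1296 in rpa34Δ, and its libraries overlapped (limma adjusted p = 0.2001). It passed the threshold without rpa49Δ replicate 3 (limma adjusted p = 0.0443). On the whole-gene scale position 437 had a log2 difference of -1.58 (limma adjusted p = 6.84e-06). The bin that holds it, 401 to 450, fell by 0.89 on the class scale (limma adjusted p = 0.000485), and this fall held on all 4 scales. The first bin, 1 to 50, fell by 1.06 and the last, 651 to 700, by 1.07, and the mean position of ends within ETS 1 was 301 ± 8.20 nt in rpa49Δ and 324 ± 3.96 nt in rpa34Δ (exact permutation p = 0.1, adjusted 0.134).

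In ITS 1, which separates 18S from 5.8S, 1 tall position stood out in rpa49Δ. Of 321 tested positions 37 (11.5%) were higher and 85 (26.5%) lower, beside 13.1% and 31.7% of all spacer positions. Position 2666 stood at 33921, 30693 and 26666 spacer RPM in rpa49Δ, against 4987, 4918 and 6012 in rpa34Δ. It was 5.73 times higher (log2 difference 2.50, SE 0.163, limma adjusted p = 1.72e-07), with a WT mean of 2475 ± 334. Of the 47635 ± 4179 spacer RPM of the bin from 2651 to 2700 in rpa49Δ, position 2666 made up more than all other positions together, and the bin had 22743 ± 1003 spacer RPM in rpa34Δ. The bin difference of 1.06 became -0.10 on the whole-gene scale (limma adjusted p = 0.566). Those that start at 2501, 2551 and 2801 fell on all 4 scales, by 0.97, 1.02 and 0.76 on the class scale. Positions 2779 and 2782 rose with log2 differences of 1.66 and 1.91, at levels of 1554 ± 261 and 2127 ± 733 spacer RPM in rpa49Δ.

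In ITS 2, between 5.8S and 25S, ends of rpa49Δ lay close to the 5.8S boundary. The mean position within ITS 2 was 44.5, 49.1 and 46.2 nt in rpa49Δ, against 78.1, 80.9 and 82.8 nt in rpa34Δ and 95.4 ± 1.04 nt in WT. The bin from 3020 to 3069 had 148163 ± 10732 spacer RPM in rpa49Δ and 71847 ± 4423 in rpa34Δ (log2 difference 1.04, limma adjusted p = 5.55e-06), whereas the bins from 3120, 3170 and 3220 on fell by 0.59 to 0.60. These 3 falls did not hold with the highest 1% of positions left out of the scale, where the log2 differences were -0.15, -0.16 and -0.16 (limma adjusted p = 0.105 to 0.163). The first 10 nt after 5.8S held 13.4% ± 1.08 of spacer reads in rpa49Δ, 5.595% ± 0.414 in rpa34Δ and 2.51% ± 0.308 in WT. Measured against the whole gene, positions 3021 to 3027, a window chosen after the values were seen, were about as frequent in both deletions, with 3448 ± 405 reads per 1000000 gene reads in rpa49Δ and 3180 ± 257 in rpa34Δ. The rest of ITS 2, from 3028 to 3251, had 2358 ± 213 in rpa49Δ, 6745 ± 446 in rpa34Δ and 9954 ± 725 in WT on that scale. With positions within 10 nt of mature ends left out, the bin starting at 3020 had a log2 difference of -0.02 (limma adjusted p = 0.830), and the ITS 2 share of spacer reads was 1.94 points lower in rpa49Δ.

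Away from that boundary, ITS 2 held the largest rises of all spacer positions. Position 3079 stood at 2962, 2951 and 2704 spacer RPM in rpa49Δ, against 246, 237 and 302 in rpa34Δ, a fold of 10.98 (log2 difference 3.04, SE 0.158, limma adjusted p = 2.04e-08). The WT mean, 265 ± 30.3, matched that of rpa34Δ within the SD. Its neighbours 3077 and 3078 had log2 differences of 2.73 and 2.90, and there the rpa34Δ and WT means were likewise close, at 112 and 88.1 spacer RPM for 3077 and at 157 and 141 for 3078. Positions 3118 and 3119 rose with differences of 2.54 and 2.06. On the whole-gene scale 3077, 3078, 3079, 3081, 3118 and 3119 stayed higher, by 1.04 to 2.06.

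Over all spacers, the 26 positions higher on all 4 scales formed 11 groups of positions no more than 3 nt apart. They held 28.0%, 26.9% and 25.4% of spacer reads in rpa49Δ, against 5.48%, 5.51% and 5.34% in rpa34Δ, and 1.62% ± 0.132 in WT. These positions were picked by this difference, so the shares describe their size and test nothing. They were 2.17% of the tested spacer positions. By region they were 16 of 582 tested positions in ETS 1 (2.75%), 4 of 321 in ITS 1, 6 of 223 in ITS 2 (2.69%) and 0 of 70 in ETS 2. One of them, position 276, was lost when the libraries were thinned to equal reads (limma adjusted p = 0.0556).

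In ETS 2 the rpa49Δ share of ends was lower past the processing site and up to the end of the gene. It holds residues 6663 to 6697 annotated as cleaved by the RNase III enzyme Rnt1, the terminator element T1 at 6739, and from 6757 to 6767 a site for Reb1 and Nsi1, proteins that bind the terminator. All 5 bins fell, by 0.43, 1.03, 2.99, 2.08 and 1.62 on the log2 scale from 5′ to 3′. The 3 bins starting at 6698, 6748 and 6798 fell on all 4 scales. The first bin, 6648 to 6697, with the Rnt1 residues, turned to a log2 difference of 0.16 with ETS 2 scaled on its own reads (limma adjusted p = 0.0115) and to 0.01 without the highest 1% of positions (limma adjusted p = 0.966). The fall of the last bin, which is 11 nt long, was lost in 4 alternatives, 3 of them leaving out 1 rpa34Δ library each (limma adjusted p = 0.0825 to 0.0885). The bin from 6748 to 6797, with the Reb1 and Nsi1 site, stood at 555, 290 and 377 spacer RPM in rpa49Δ, against 4019, 3892 and 3634 in rpa34Δ and a WT mean of 2235. These were 24, 12 and 11 reads in rpa49Δ. Past T1 lay 0.132%, 0.138% and 0.0856% of spacer reads in rpa49Δ, against 0.914%, 0.910% and 0.857% in rpa34Δ, and 0.614% ± 0.0722 in WT (exact permutation p = 0.1, adjusted 0.134). At T1 itself the strains overlapped, with 1573 ± 24.3 spacer RPM in rpa49Δ and 1811 ± 313 in rpa34Δ (log2 difference -0.18, limma adjusted p = 0.466).

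At the Rnt1 site, neighbouring positions behaved differently. Position 6662, just 5′ of the annotated residues, had 17224 ± 3404 spacer RPM in rpa49Δ, 19681 ± 1632 in rpa34Δ and 16680 ± 3318 in WT. The libraries overlapped and the difference of -0.21 did not pass (limma adjusted p = 0.455), although it was -1.36 on the whole-gene scale (limma adjusted p = 3.27e-05) and 0.38 when ETS 2 was scaled on its own reads (limma adjusted p = 0.0434). Position 6666, inside the residues, stood at 278, 193 and 342 spacer RPM in rpa49Δ, against 7676, 8398 and 8158 in rpa34Δ. It fell by 4.48 (SE 0.171, limma adjusted p = 1.97e-09), and the WT mean was 3982 ± 800. The residues as a whole held 0.552% ± 0.0623 of spacer reads in rpa49Δ, 2.27% ± 0.0332 in rpa34Δ and 2.00% ± 0.309 in WT. The 5 positions of the core promoter held 0 to 3 reads per rpa49Δ library and 0 to 1 per rpa34Δ library, too few to compare.

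In mature rRNA the differences were smaller and ran in both directions. Of 108 bins, 10 (9.26%) were higher and 20 (18.5%) lower in rpa49Δ, and of 5311 tested positions 461 (8.68%) were higher and 662 (12.5%) lower. In either direction these were 30 bins (27.8%) and 1123 positions (21.1%). On all 4 scales 10 bins were higher and 12 lower, and 454 positions were higher and 582 lower. Without rpa34Δ replicate 1 the number of mature positions past the threshold was 628. On the whole-gene scale the split was 14 bins higher and 12 lower, and 650 positions higher and 582 lower.

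Within 18S, the RNA of the small ribosomal subunit, rpa49Δ ends were shifted toward the 3′ end. In 18S the bins starting at 751, 801, 851, 901 and 951 fell, as did those at 1201, 1451 and 1651, whereas those at 1101, 1851, 2101, 2151, 2301, 2351 and 2451 rose. The falls at 751, 951 and 1651 did not pass on the whole-gene scale (limma adjusted p = 0.119, 0.0735 and 0.156). The bin from 901 to 950 stood at 3496, 3686 and 3313 mature RPM in rpa49Δ, against 4815, 5000 and 4961 in rpa34Δ, and fell by 0.49 (SE 0.095, limma adjusted p = 0.00192). The bin from 2451 to 2500 stood at 11343, 14459 and 14793 mature RPM in rpa49Δ, against 10953, 9665 and 10797 in rpa34Δ (log2 difference 0.36, limma adjusted p = 0.0119). The difference at 2451 was 0.02 with positions within 10 nt of the 3′ end left out (limma adjusted p = 0.902), and it was not past the threshold without rpa49Δ replicate 3 (limma adjusted p = 0.0623). The mean position within 18S was 890, 898 and 910 nt in rpa49Δ, against 863, 862 and 876 nt in rpa34Δ, and 849 ± 5.76 nt in WT (exact permutation p = 0.1, adjusted 0.134). The libraries of rpa49Δ thus all lay farther 3′ than those of rpa34Δ.

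**Figure D4:**
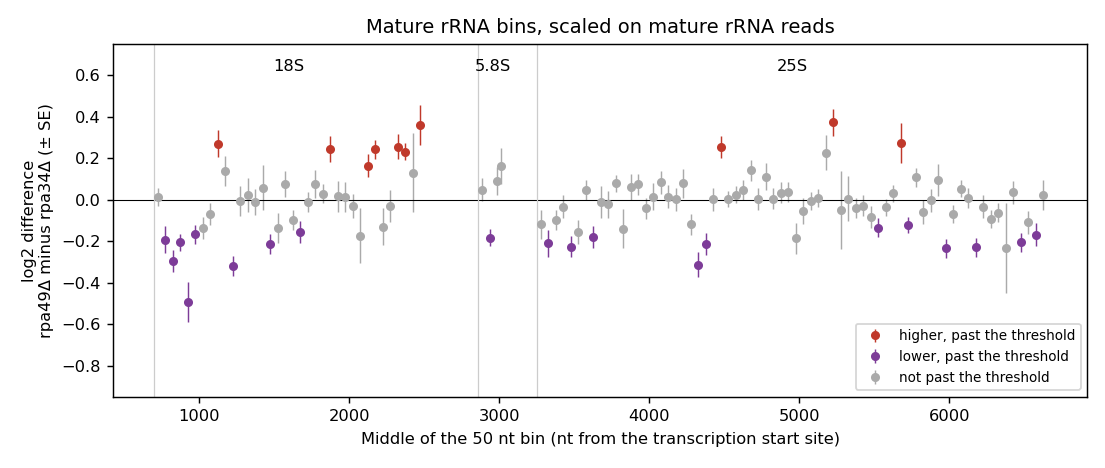
Log2 difference of rpa49Δ minus rpa34Δ in mature RPM ± SE (y axis) for each 50 nt bin of 18S, 5.8S and 25S (x axis, middle of the bin), coloured by whether the bin passed the limma threshold. The higher bins of 18S lie mostly in its 3′ part and the lower ones mostly in its 5′ part, while in 25S both are scattered.

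The largest changes in mature rRNA were falls at single nucleotides. Position 702, the second nucleotide of 18S, stood at 5.32, 1.31 and 3.30 mature RPM in rpa49Δ, against 225, 269 and 212 in rpa34Δ, and the WT mean was 422 ± 57.9. It fell by 4.21 (SE 0.145, limma adjusted p = 4.78e-10), on 8, 2 and 4 reads in rpa49Δ. Position 708 fell by 2.86. The first 10 nt of 18S together held 0.00298% ± 0.000769 of mature reads in rpa49Δ, 0.0406% ± 0.00354 in rpa34Δ and 0.0798% ± 0.0113 in WT, and the libraries did not overlap. Elsewhere in 18S, position 1223 had 61.7 ± 6.41 mature RPM in rpa49Δ, 463 ± 33.7 in rpa34Δ and 599 ± 57.0 in WT, and fell by 2.72. Position 1899 fell by 2.69, with 23.3 ± 8.05 mature RPM in rpa49Δ, 202 ± 32.6 in rpa34Δ and 799 ± 132 in WT, so that here rpa34Δ also stood below WT. Positions 845, 1658 and 2491 fell by 2.07 to 2.35.

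The 10 largest rises in mature rRNA were smaller than the falls, with log2 differences of 0.71 to 1.07. Position 1202 stood at 382, 383 and 295 mature RPM in rpa49Δ, against 149, 167 and 172 in rpa34Δ, a fold of 2.18 (log2 difference 1.07, SE 0.112, limma adjusted p = 8.59e-06). Its neighbours 1200 and 1201 rose as well, with log2 differences of 0.91 and 0.71, although position 1223, which fell, lies in the same bin as 1202. Position 2495, near the 3′ end of 18S, stood at 1761, 2273 and 2494 mature RPM in rpa49Δ, against 1101, 981 and 1053 in rpa34Δ (log2 difference 1.04, limma adjusted p = 4.93e-05), and the WT mean was 713 ± 59.4. Position 2498, the highest mature position of rpa49Δ, had 4004 ± 925 mature RPM in rpa49Δ and 2585 ± 255 in rpa34Δ (log2 difference 0.61, limma adjusted p = 0.0199). That call ended without rpa49Δ replicate 2 or 3 or without rpa34Δ replicate 2 (limma adjusted p = 0.0906, 0.0670 and 0.0891). The last 10 nt of 18S held 0.846% ± 0.178 of mature reads in rpa49Δ, 0.544% ± 0.0438 in rpa34Δ and 0.381% ± 0.0391 in WT.

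In 25S, the main RNA of the large subunit, 3 of 68 bins (4.41%) rose and 11 (16.2%) fell, beside 9.26% and 18.5% of all mature bins. On the whole-gene scale 7 bins of 25S rose and 6 fell. In 5.8S 0 of 4 bins rose and 1 fell. The largest rise, from 5202 to 5251, had 16998 ± 945 mature RPM in rpa49Δ and 13126 ± 625 in rpa34Δ (log2 difference 0.37, SE 0.066, limma adjusted p = 0.00135). The largest fall, from 4302 to 4351, was by 0.31 and contains position 4339. At 4339 rpa49Δ had 32.6, 39.3 and 55.2 mature RPM, against 317, 356 and 274 in rpa34Δ, and the WT mean, 316 ± 17.7, matched that of rpa34Δ. It fell by 2.65 (SE 0.150, limma adjusted p = 1.63e-08). The rise of the bin from 5652 to 5701 was lost in 5 alternatives, among them those without rpa49Δ replicate 1 or 2 and without rpa34Δ replicate 1 or 3 (limma adjusted p = 0.0671 to 0.148). The mean position within 25S was 1775 ± 10.7 nt in rpa49Δ and 1773 ± 7.09 nt in rpa34Δ, and its libraries overlapped (exact permutation p = 0.8).

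A pair of the tallest mature positions did not separate the deletions. Position 6399 in 25S stood at 1182, 7843 and 2193 mature RPM in rpa49Δ, against 5705, 4317 and 3560 in rpa34Δ and a WT mean of 424 ± 49.6 (limma adjusted p = 0.302 between the deletions). The rpa49Δ libraries spanned the rpa34Δ range, and without rpa49Δ replicate 2 the difference was -1.46 (limma adjusted p = 0.00299). Position 6646, next to the 3′ end of 25S, had 2945 ± 191 mature RPM in rpa49Δ, 2744 ± 68.9 in rpa34Δ and 2566 ± 260 in WT (limma adjusted p = 0.615).

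**Figure D5:**
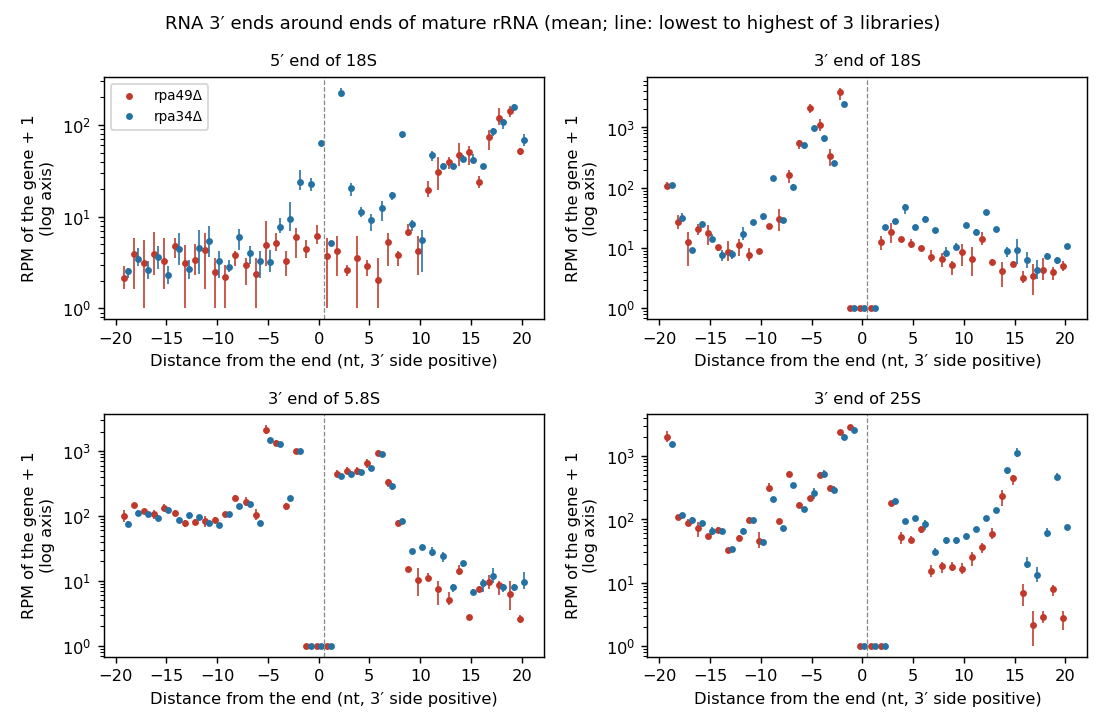
Reads per 1000000 gene reads, plus 1, (y axis, log scale) at each position from 20 nt before to 20 nt after 4 ends of mature rRNA (x axis, dashed line at the end), mean with a line from the lowest to the highest of 3 libraries, for rpa49Δ and rpa34Δ. At the 5′ end of 18S the rpa34Δ points at position 2 and position 8 stand far above those of rpa49Δ, and points at 1 near the 3′ ends are positions listed at 0 in every library.

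The base at the RNA 3′ end also differed. In the spacers, ends at G made up 12.8% ± 1.03 of reads in rpa49Δ, 22.8% ± 0.291 in rpa34Δ and 29.0% ± 0.595 in WT. Ends at U made up 38.9% ± 0.856, 32.3% ± 0.572 and 23.5% ± 0.464, and ends at C 18.8% ± 1.54, 13.5% ± 0.357 and 12.5% ± 0.614 in the same strains (exact permutation p = 0.1 for each base between the deletions, adjusted 0.134). Ends at A overlapped, with 29.5% ± 2.86 in rpa49Δ and 31.4% ± 0.540 in rpa34Δ. In mature rRNA ends at A made up 30.4% ± 0.394 in rpa49Δ and 32.5% ± 0.0372 in rpa34Δ. There ends at C (18.9% against 17.7%) and at U (27.1% against 26.4%) were higher in rpa49Δ without overlap. Ends at G overlapped (23.6% against 23.4%), so the lower share of G in the spacers was not seen in mature rRNA. A few tall positions carry much of the spacer shares, so counts of positions are given beside them. Of tested spacer positions 48.1% ended at U or C, against 68.2% of those higher in rpa49Δ and 34.04% of those lower.

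The next base differed as well, mainly where the RNA ended at A or G. This feature was looked at after the values were known and is given without a test. Of tested spacer positions where a G is followed by a G, 56.9% were lower in rpa49Δ, beside 31.7% of all. So were 53.1% of those with A followed by G, 49.4% with A followed by U and 44.2% with G followed by U. Where the RNA ended at C, 5% were lower before G and 30.3% before U. Where it ended at U, these were 31.0% and 25.9%. In mature rRNA 30.4% of positions with A followed by U and 26.8% with A followed by G were lower, beside 12.5% of all. With G followed by G it was 15.6%, and with G followed by U 19.8%. With C it was 4.84% before G and 9.57% before U, and with U 12.2% and 10.7%. Among the lower mature positions 72.1% were followed by G or U, against 54.0% of all tested.

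The fallen positions printed above end before G (163, 232 and 6666) or before U (175 and 702). Of the risen ones printed, 106, 577 and 3079 also end before G and 2666 before U, while 138 ends before C. G or U followed 61.5% of the 26 spacer positions higher on all 4 scales and 70.9% of the 265 lower ones. Over all tested spacer positions it was 56.8%. Positions 106 and 2666 are the only 2 of the 26 risen spacer positions that end at A, and both end in the same 6 letters, gagagA. These 6 letters occur 6 times in the gene, on the RNA strand. At 183 and 557 in ETS 1 the same letters went with log2 differences of 0.34 and 0.31 that did not pass (limma adjusted p = 0.205 and 0.377), at 3589 in 25S with a rise of 0.58 (limma adjusted p = 0.00461), and position 6702 in ETS 2 was below the minimum for testing.

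The RNA behind the risen ends had a lower median predicted folding energy, another feature looked at after the values were known. For the 40 nt ending at the RNA 3′ end, the median predicted minimum free energy was -6.8 kcal/mol at all 157 higher spacer positions, -4.85 at all 379 lower ones and -5.6 over all tested spacer positions. It was -11.25 at the 26 positions higher on all 4 scales, the extreme subset, and -4.65 at the 265 lower on all 4. In mature rRNA the medians were -7.20 for the 454 higher positions, -5.70 for the 582 lower and -6.60 over all. Neighbouring positions share most of their window, so the 26 positions amount to 11 groups, and no test was made.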

How the data were processed

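The authors deposited, for each library and position of the 35S gene, RNA 3′ ends in reads per 1000000 (RPM), which sum to that number over the positions up to T1. Per the submitters' processing notes the build was R64 and the tools included STAR 2.7.1a, cutadapt 3.4, R 4.0.2, SAMtools 1.6, bedtools 2.28.0 and bcl2fastq 2.20.00. The ligated linker carried a molecular identifier, per the labels' protocols, but the treatment of PCR duplicates and of reads fitting several rDNA copies is not stated there. The deposited RPM values were whole multiples of 1 read for 99.956% to 100% of positions (tolerance 0.01), so read numbers were recovered. They do not say which reads were independent molecules.

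Each library was rescaled on its spacer reads and on its mature rRNA reads. Bins of 50 nt, restarting at each region, and individual positions averaging at least 100 spacer RPM or 10 mature RPM were tested on log2(value + 100) in spacers and log2(value + 10) in mature rRNA. Differences are on that scale and understate low positions. limma 3.58.1 with a trend compared 3 rpa49Δ with 3 rpa34Δ libraries, with Benjamini-Hochberg adjustment over both classes. One value per library was compared by a two-sided exact permutation test over 10 splits. As an alternative, edgeR 4.0.16 on the recovered reads called 4 spacer bins higher and 19 lower, 10 mature bins higher and 20 lower, 194 spacer positions higher and 393 lower, and 480 mature positions higher and 675 lower. The position test was also run on simulated data for this comparison, with 1139 spacer and 5316 mature positions. In spacers it called 15 of 939 unchanged positions (1.6%). It called 24 of 69 spacer changes of 1.5-fold (34.8%), 51 of 64 of 2-fold (79.7%) and 67 of 67 of 4-fold. In mature rRNA it called 24 of 5116 unchanged positions (0.469%). There it called 53 of 63 changes of 1.5-fold (84.1%), 72 of 72 of 2-fold (100%) and 65 of 65 of 4-fold. In both classes the false share of all calls was larger than the rate per unchanged position. In this simulation it was also larger than the 0.05 set as the threshold on the adjusted p. Folding used RNAfold 2.7.2.

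Named were the annotated regions and features, the 8 bins and 10 positions with the largest rise and the largest fall per class past the threshold, and the 3 highest positions of each strain. Positions higher on all 4 scales and windows were added after seeing the values. Members and lists were chosen with earlier results of these data known. The replicate numbers were not used to pair the libraries. Same-numbered libraries had correlations of -0.04, 0.117 and 0.448 between their deviations from the strain means. Libraries with different numbers had -0.439 to 0.269. So few values cannot settle whether the libraries were paired. R 4.3.3 and Python 3.11.15 were used.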

Additional observations from a re-analysis of the deposited data

How the results depend on the processing

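With 3 libraries a strain, an exact permutation test cannot go below 0.1, and 4 to 20 reads stand behind each rpa49Δ value at positions 163, 175 and 232, and 2 to 12 behind those at 702 and 6666. Of 23 spacer bins, 22 to 24 passed when 1 library was left out, and of 30 mature bins 20 to 32, of 536 spacer positions 394 to 577, and of 1123 mature positions 628 to 1166. A fit with the replicate block gave 23 spacer bins, 31 mature bins, 547 spacer positions and 1227 mature positions. Thinning to equal reads gave 23, 32, 423 and 1014. Bins of 25 nt gave 46 in spacers and 61 in mature rRNA, and bins of 100 nt gave 15 and 14, there being more and fewer bins to test. Spacer positions past the threshold numbered 893 on the whole-gene scale and 261 with a minimum 5 times higher, which tests fewer positions.

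On the whole-gene scale the bins starting at 101, 551, 2651 and 3020 turned from a rise to log2 differences of -0.10, -0.57, -0.10 and -0.12. The bin at 3020 had -0.021 without positions near mature ends, and position 6662 had 0.38 when each region was scaled on its own reads. The cause of these turns was not tested beyond the scale itself. Without the highest 1% of positions, the share in rpa49Δ minus that in rpa34Δ, in percentage points, was 0.0416 for ETS 1, 0.438 for ITS 1, -0.197 for 18S, -0.0384 for 5.8S and 0.236 for 25S. Without positions near mature ends it was 4.97 for ETS 1, 0.133 for ITS 1 and -1.94 for ITS 2. The cause was not tested. Signs changed when 1 library was left out for the shares of 18S (-0.169 to 0.464), 5.8S (-0.0443 to 0.123) and 25S (-0.420 to 0.0468), the 5′ part of 5.8S (-1.62 to 0.216), mature ends at G (-0.148 to 0.466), the 10 nt after 18S (-0.0468 to 0.0148) and the mean position in 25S (-3.75 to 6.86 nt). Values with 1 number per library cannot pass 0.05 in an exact permutation test under any alternative, so their side of the threshold says nothing about stability. The split of spacer bins, 4 higher and 19 lower, became 12 and 11 without the highest 1% of positions. Of the values of named bins and positions under alternatives, 1529 kept their side of the threshold, 16 dropped out of the calls, 4 entered them and 6 turned. A change of sign counted as a turn only where either value passed. Most of these members were picked as the largest changes past the threshold. A further 26 spacer positions were picked for being higher on scales that are among these alternatives. Part of this agreement was thus fixed by the choice, so the counts do not measure stability.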
